A study of Homo sapiens with 6 samples.

Results

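The BCL2 family decides whether a stressed cell opens the outer membrane of its mitochondria. The 10 genes described here were chosen by name from the table of all genes: BCL2L1 and MCL1, which encode anti-apoptotic proteins, BAX and BAK1, which encode the pore-forming effectors, and BAD, BID, BIK, BCL2L11, BBC3 and PMAIP1, which encode BH3-only proteins. All 10 symbols had exactly 1 entry among the 58938 entries of the table, and all 10 reached the mean of 1 FPKM (fragments per kilobase of gene, scaled for each library) that was required for a test. The libraries came from HCT116, an established human colorectal cancer line of epithelial origin. In 3 of them (MST3) the cells carried a plasmid that overexpresses MST3, a serine/threonine kinase of the GCKIII family whose gene is STK24, and in the other 3 (vector) they carried a vector and were labelled WT. Transfection was by lipofection at 60% density with the medium changed at 6 hours and the RNA collected at 30 hours in both groups. Neither the promoter on the plasmid nor the share of cells that took it up is stated in the labels. The labels do not say whether the numbered libraries were separate cultures, so each p-value covers the spread among these libraries alone, and that spread may be technical. In such bulk RNA, fewer cells with a transcript and less of it per cell cannot be told apart.

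In healthy cells BCL2L1 (BCL-xL) and MCL1 proteins hold BAX and BAK1 in check. After damage, growth factor loss or oncogenic stress, BH3-only proteins are made or activated, bind the groove of the anti-apoptotic proteins or the effectors themselves, and BAX and BAK1 then form pores that release cytochrome c and start the caspases. Most of this control acts on the proteins, through phosphorylation, cleavage and turnover, and mRNA levels show only the template side of it. The series title names PGAM5, a mitochondrial phosphatase first known as a binding partner of BCL-xL, and BCL-xL is a known survival factor of colorectal cancer cells.

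The family is held together by the BH3 region, and the coding stretch of that region is shown for each of the 10 genes because it is what the name BH3-only refers to. Each stretch has 42 bases and was read from a GENCODE 29 transcript, and capitals mark the codons of the conserved leucine and aspartate that stand at the ends of a core of 6 residues (leucine, any 3 residues, then glycine, alanine or serine, then aspartate).
BCL2L1: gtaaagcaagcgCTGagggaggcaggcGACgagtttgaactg
MCL1: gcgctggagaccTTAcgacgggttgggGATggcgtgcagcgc
BAX: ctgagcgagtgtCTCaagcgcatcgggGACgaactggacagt
BAK1: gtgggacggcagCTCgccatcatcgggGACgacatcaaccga
BAD: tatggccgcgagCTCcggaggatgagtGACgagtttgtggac
BID: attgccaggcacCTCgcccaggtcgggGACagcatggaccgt
BIK: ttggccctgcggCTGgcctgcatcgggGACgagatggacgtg
BCL2L11: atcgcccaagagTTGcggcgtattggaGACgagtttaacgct
BBC3: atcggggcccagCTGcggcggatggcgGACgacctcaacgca
PMAIP1: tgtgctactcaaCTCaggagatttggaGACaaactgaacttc
The core was found once in 9 of the proteins and 2 times in BID, where the second match, the known BH3 region, is the one shown. It is a loose pattern, present in 35.0% of 19497 human proteins read in the same way. The aspartate codon was GAC in 9 genes and GAT in MCL1. Among the 45 pairs of stretches, BAK1 and BIK shared the most bases, 28 of 42, and the least alike pairs shared 13.

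On GRCh38 the anti-apoptotic stretches lie at chr20:31721922-31721963 (BCL2L1, minus strand) and chr1:150578865-150578906 (MCL1, minus strand). Those of the effectors lie at chr19:48955775-48955816 (BAX, plus strand) and chr6:33575387-33575428 (BAK1, minus strand). The BH3-only stretches lie at chr11:64271622-64271663 (BAD, minus strand), chr22:17739415-17739456 (BID, minus strand) and chr22:43127704-43127745 (BIK, plus strand). The remaining BH3-only stretches are chr2:111150091-111150132 (BCL2L11, plus strand), chr19:47226579-47226620 (BBC3, minus strand) and chr18:59902661-59902702 (PMAIP1, plus strand). All of them are coding sequence within a single exon.

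The reads recovered from the FPKM values came to 15289213 to 17209736 per MST3 library and 17296201 to 17708029 per vector library, with reads on 25125 to 27442 genes per MST3 library and on 25099 to 25501 per vector library. MST3 replicate 1 had the fewest reads, 15289213, and the most genes with a read, 27442. Across the 13036 tested genes (not independent replicates) Pearson's r was 0.9662 to 0.9701 between MST3 libraries and 0.9812 to 0.9844 between vector libraries, so the MST3 libraries were less alike. Between MST3 and vector libraries it was 0.9625 to 0.9813, and the highest of these was above that of any MST3 pair. STK24, which checks the labels, had 63.7, 72.2 and 76 FPKM in the MST3 libraries, against 17.1, 17.4 and 17.4 FPKM in the vector libraries (limma adjusted p = 0.000998). The epithelial markers EPCAM, KRT8, KRT18 and KRT19 averaged 88.4, 366, 216 and 976 FPKM in MST3 and 87.2, 345, 230 and 939 FPKM in vector libraries. CDH1, which encodes E-cadherin, averaged 30.4 FPKM in MST3 and 36.4 FPKM in vector libraries, with overlapping groups (log2 difference -0.26, limma unadjusted p = 0.06, adjusted p = 0.719). Of the intestinal genes, CDX2 averaged 3.4 FPKM in MST3 and 3.27 FPKM in vector libraries, while CDX1 and VIL1 were at or near 0. The 5 leukocyte markers summed to at most 0.531 FPKM in MST3 and 0.692 FPKM in vector libraries, and the 3 endothelial markers to at most 0.27 and 0.233 FPKM. The 5 fibroblast markers summed to 3.94 to 5.08 FPKM in MST3 and 3.79 to 4.62 FPKM in vector libraries, nearly all of it COL1A1 at 4.35 and 4.16 FPKM.

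As levels among the members, the anti-apoptotic MCL1 and BCL2L1 mRNAs stood highest. MCL1 was first in every library at 54 to 61.2 FPKM in MST3 and 59.3 to 67.5 FPKM in vector libraries, and BCL2L1 was second at 32.5 to 36.1 and 28 to 34.2 FPKM. The mean of MCL1 was above that of 95.7% of tested genes and the mean of BCL2L1 above 91.2%. PMAIP1 came next by its mean, followed by BAX and BIK, whose ranges overlapped in both groups, while PMAIP1 and BAX overlapped in the MST3 libraries and not in the vector libraries. In the vector libraries the order continued with BAK1 and BBC3, which overlapped, and ended with BID, BCL2L11 and BAD, of which neighbours overlapped. In the MST3 libraries BAD averaged 12.3 FPKM and stood between BBC3 and BAK1, and its range overlapped that of both. BCL2L11, the lowest member over all libraries, was still above 53.5% of tested genes.

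**Figure D1:**
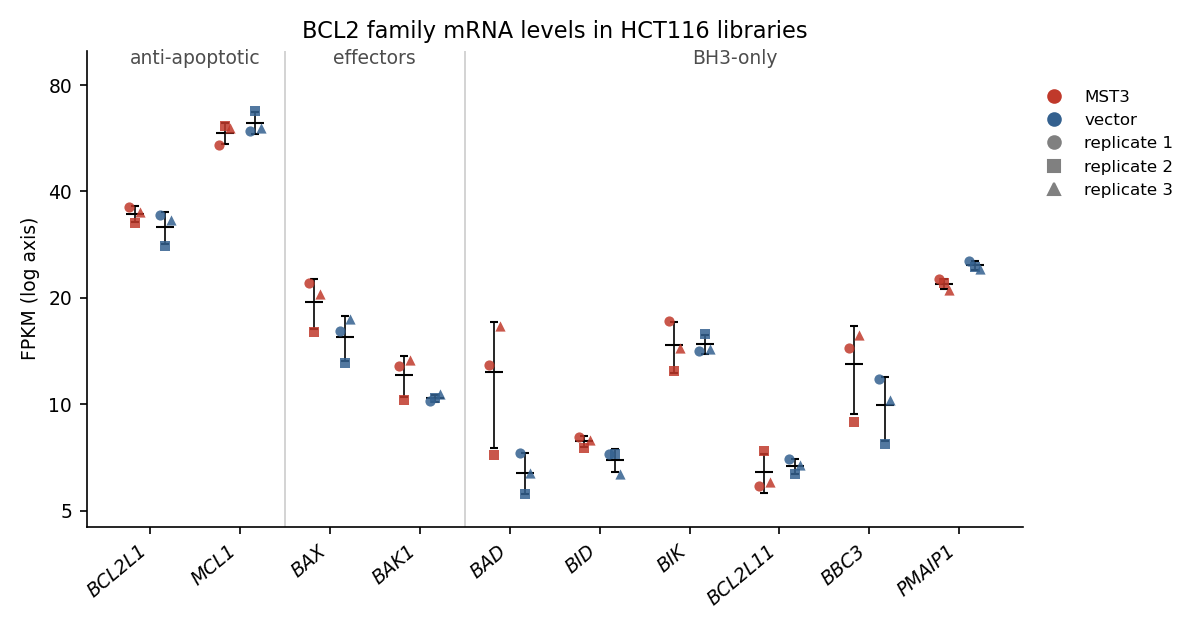
FPKM of the 10 BCL2 family genes (log axis) in the 3 MST3 and 3 vector libraries, with marker shape for the replicate number and bars for the mean ± SD. MCL1 and BCL2L1 lie above all other members in both groups, and only PMAIP1 and BID have groups that do not overlap.

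The design text sets out to learn what MST3 regulates in colon cancer. For the BCL2 family, none of the 10 mRNAs passed limma over all genes (0 of 10, where 0.00767% of the 13036 tested genes passed, STK24 alone). BAD was the only member with an unadjusted p under 0.05, 1 of 10, where 5.38% of tested genes had such a p, 3.51% with a higher and 1.86% with a lower value in MST3 libraries. The groups did not overlap for 2 members, BID (higher) and PMAIP1 (lower), where 11.9% of tested genes had groups that did not overlap, 5.19% higher and 6.7% lower. The differences were positive for 6 members and negative for 4, with a median of 0.14 on the log2(FPKM + 1) scale, beside 46.6% positive and a median of -0.01 over all tested genes. Limma voom on the recovered reads likewise called 0 members, with 2 at an unadjusted p under 0.05, beside 6.65% of tested genes. In the fit on FPKM, 4 members had such a p without MST3 replicate 2, beside 19.6% of tested genes. None had one without MST3 replicate 1, MST3 replicate 3 or vector replicate 2, where 3.47, 6.67 and 2.29% of tested genes did.

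The intervals cover the spread among these libraries alone, which may be technical, so they do not bound the effect of MST3. On the log2(FPKM + 1) scale, 9 of the 10 members had a 95% interval between -1 and 1, beside 94.2% of tested genes, and BAD was the exception. For 7 it was between -0.5 and 0.5, beside 74.4% of tested genes, and BAX and BBC3 joined BAD outside that bound. With 3 libraries against 3, the exact permutation test of a single gene, run on the difference of mean FPKM, allows no p below 0.1.

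Among the anti-apoptotic genes, MCL1 (ENSG00000143384, chromosome 1, 150574551 to 150579738, minus strand) encodes a short-lived protein that binds BAK1 and most BH3-only proteins. It had 54, 61.2 and 60.5 FPKM in MST3 libraries 1 to 3, against 59.3, 67.5 and 60.6 FPKM in vector libraries 1 to 3. The groups overlapped, and the lowest value was that of MST3 replicate 1. The means were 58.5 ± 3.96 FPKM in MST3 and 62.5 ± 4.42 FPKM in vector libraries (SD, n = 3 each), and the log2 difference was -0.09 (95% interval -0.32 to 0.13, limma adjusted p = 0.774). It was -0.04 without MST3 replicate 1 and likewise without vector replicate 2. Some 4313 reads per MST3 library and 4745 per vector library lay behind these values, for a counting error of 1.52 and 1.45%, well under the spread between replicates.

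BCL2L1 (ENSG00000171552, chromosome 20, 31664452 to 31723989, minus strand) had 36.1, 32.5 and 35 FPKM in MST3 libraries 1 to 3, against 34.2, 28 and 33.1 FPKM in vector libraries 1 to 3. The groups overlapped, with vector replicate 2 lowest. The log2 difference was 0.12 (95% interval -0.12 to 0.36, limma adjusted p = 0.739), and 0.04 without vector replicate 2. This gene and MCL1 are both spliced into forms with opposite effects on survival, which values per gene do not separate. ABALON, a noncoding RNA on the opposite strand within BCL2L1, was looked up because of that overlap after its values were seen. It had 6.69, 4.99 and 6.16 FPKM in MST3 libraries, against 4.48, 4.41 and 4.94 FPKM in vector libraries. Its groups did not overlap, with MST3 higher as for 5.19% of tested genes (log2 difference 0.30, limma unadjusted p = 0.0259, adjusted p = 0.719). No source used here gives the strand setting of the counting, so reads from the pair cannot be told apart where they overlap.

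Of the effectors, BAX (ENSG00000087088, chromosome 19, 48954815 to 48961798, plus strand) waits in the cytosol and moves to mitochondria when activated. Its values were 22.1, 16 and 20.5 FPKM in MST3 libraries 1 to 3, against 16.1, 13.1 and 17.4 FPKM in vector libraries 1 to 3. MST3 replicates 1 and 3 were above every vector library and MST3 replicate 2 was inside their range. The log2 difference was 0.31 (SE 0.15, 95% interval -0.04 to 0.66, limma adjusted p = 0.719), with an exact permutation p = 0.3, and it was 0.20 without vector replicate 2.

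BAK1 (ENSG00000030110, chromosome 6, 33572547 to 33580293, minus strand), the effector that sits in the outer membrane at rest, had 12.8, 10.3 and 13.3 FPKM in MST3 libraries 1 to 3. The vector libraries had 10.2, 10.4 and 10.7 FPKM. The same pair of MST3 libraries was high and the second was inside the vector range. The vector values were close, with a coefficient of variation of 2.21% against a counting error of 4.99%. From so few libraries, this does not show less variation than counting gives. The log2 difference was 0.19 (95% interval -0.05 to 0.44, limma adjusted p = 0.719), and 0.30 without MST3 replicate 2.

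The widest spread was in BAD (ENSG00000002330, chromosome 11, 64269830 to 64284704, minus strand), whose protein binds BCL-xL and is kept away from it by survival kinases and 14-3-3 proteins. It had 12.9, 7.18 and 16.7 FPKM in MST3 libraries 1 to 3, against 7.26, 5.57 and 6.41 FPKM in vector libraries 1 to 3. MST3 replicates 1 and 3 were well above the rest, and MST3 replicate 2 lay just under the highest vector library, so the groups overlapped. The means were 12.3 ± 4.79 FPKM in MST3 and 6.41 ± 0.847 FPKM in vector libraries (SD, n = 3 each), a ratio of 1.91, from 351 and 191 reads per library. The log2 difference was 0.77 (SE 0.26, 95% interval 0.16 to 1.39), with a limma unadjusted p = 0.0206, an adjusted p = 0.719 and an exact permutation p = 0.2. Leaving out MST3 replicate 3 gave 0.53, leaving out replicate 1 gave 0.71 and leaving out replicate 2 gave 1.09, and the adjusted p stayed between 0.192 and 0.999 under all 20 alternatives. Most of the BAD gene body, introns included, is overlapped by GPR137 on the opposite strand. GPR137 had 2.96, 2.4 and 4.02 FPKM in MST3 and 3.01, 2.48 and 3.01 FPKM in vector libraries, and its part in the BAD values was not tested. The gene bodies of BCL2L11 and BAK1 likewise lie within MIR4435-2HG (mean 1.54 FPKM) and GGNBP1 (mean 0.179 FPKM) on the opposite strand, which was not tested either.

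BBC3 (ENSG00000105327, chromosome 19, 47220822 to 47232766, minus strand) encodes PUMA, a protein that binds all anti-apoptotic members. Its values were 14.4, 8.91 and 15.7 FPKM in MST3 libraries 1 to 3, against 11.8, 7.71 and 10.3 FPKM in vector libraries 1 to 3. Again MST3 replicates 1 and 3 were highest and replicate 2 was inside the vector range, and the vector libraries themselves differed by a coefficient of variation of 20.7%. The log2 difference was 0.34 (SE 0.22, 95% interval -0.18 to 0.86, limma adjusted p = 0.719). Leaving out MST3 replicate 2 gave 0.57, and leaving out MST3 replicate 3 or vector replicate 2 gave 0.19 and 0.18.

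BID (ENSG00000015475, chromosome 22, 17734138 to 17774770, minus strand), which caspase-8 cleaves to carry a death receptor signal to mitochondria, had 8.09, 7.51 and 7.94 FPKM in MST3 libraries 1 to 3. The vector libraries had 7.24, 7.24 and 6.34 FPKM, all of them below every MST3 library. The means were 7.85 ± 0.303 FPKM in MST3 and 6.94 ± 0.521 FPKM in vector libraries (SD, n = 3 each), a ratio of 1.13. The log2 difference of 0.16 (95% interval -0.03 to 0.35) had a limma adjusted p = 0.719 and an exact permutation p = 0.1, and was 0.10 without vector replicate 3.

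PMAIP1 (ENSG00000141682, chromosome 18, 59899948 to 59904306, plus strand) encodes NOXA, which binds MCL1 and speeds its breakdown. It had 22.6, 22 and 21.1 FPKM in MST3 libraries 1 to 3, against 25.4, 24.4 and 24.1 FPKM in vector libraries 1 to 3. Every MST3 library was lower than every vector library, at 21.9 ± 0.725 FPKM in MST3 and 24.7 ± 0.668 FPKM in vector libraries (SD, n = 3 each). The coefficients of variation, 3.31% in MST3 and 2.71% in vector libraries, were near the counting errors of 3.49 and 3.23%. With n = 3 each, they do not show less variation than counting gives. The ratio was 0.888 and the log2 difference -0.16 (SE 0.08, 95% interval -0.34 to 0.01, limma adjusted p = 0.719), with an exact permutation p = 0.1. Under the 20 alternatives the difference ran from -0.23 to -0.14, and the unadjusted p by limma from 0.0185 to 0.22.

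The remaining BH3-only genes had the log2 differences nearest to 0 of all 10 members. BIK (ENSG00000100290, chromosome 22, 43110748 to 43129712, plus strand), whose protein acts from the endoplasmic reticulum, had 17.2, 12.4 and 14.4 FPKM in MST3 libraries, against 14.1, 15.8 and 14.3 FPKM in vector libraries. The highest and the lowest of its 6 values were both MST3 libraries. Its log2 difference was -0.02 (95% interval -0.30 to 0.27, limma adjusted p = 0.975), and the sign turned with median-of-ratios scaling (0.01). BCL2L11 (ENSG00000153094, chromosome 2, 111119378 to 111168447, plus strand), which encodes BIM and is induced by FOXO factors when ERK or AKT signals fall, had 5.89, 7.36 and 6.04 FPKM in MST3 libraries, against 7, 6.34 and 6.73 FPKM in vector libraries. MST3 replicates 1 and 3 were the lowest libraries and MST3 replicate 2 the highest. Its log2 difference was -0.05 (95% interval -0.28 to 0.17, limma adjusted p = 0.869), and -0.14 without MST3 replicate 2.

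**Figure D2:**
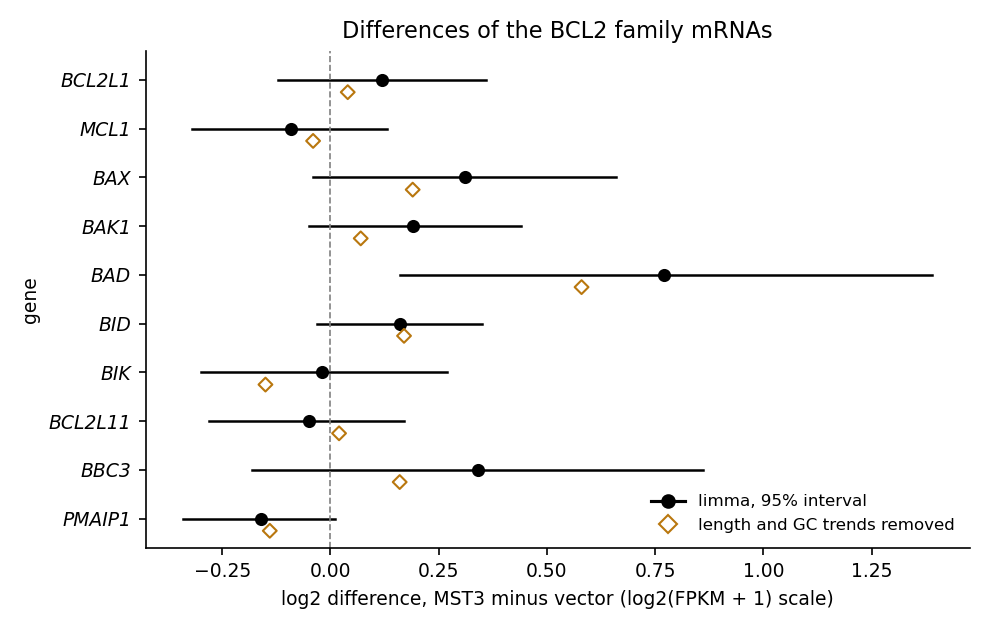
Log2 difference (MST3 minus vector, on the log2(FPKM + 1) scale) of each BCL2 family mRNA, with 95% intervals from limma as lines and the value after removal of each library's trends with gene length and GC content as open diamonds. Only the interval of BAD, at 0.16 to 1.39, leaves out 0, and with the trends removed the value of BAD is 0.58.

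The MST3 libraries differed among themselves in a way that several members shared. BAD, BAK1, BAX, BBC3 and BCL2L1 were higher in MST3 replicates 1 and 3 than in any vector library but not in MST3 replicate 2, 5 of 10 members with a pattern that 13% of tested genes showed. BCL2L11 showed the opposite pattern, as did 17.3% of tested genes. The pattern was noticed in these libraries, so the counts are a description. Against the vector mean, MST3 replicate 1 deviated by 0.91 for BAD, 0.49 for BAX and 0.51 for BBC3 on the log2(FPKM + 1) scale, and MST3 replicate 3 by 1.26, 0.39 and 0.63. MST3 replicate 2 deviated by 0.15, 0.05 and -0.12. Vector replicate 2 was likewise the lowest vector library for BAD, BAX and BBC3, at -0.17, -0.22 and -0.31, and for BCL2L1 at -0.17, but not for BAK1. STK24 had 63.7, 72.2 and 76 FPKM in MST3 libraries 1 to 3, and its relation to this split was not tested.

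**Figure D3:**
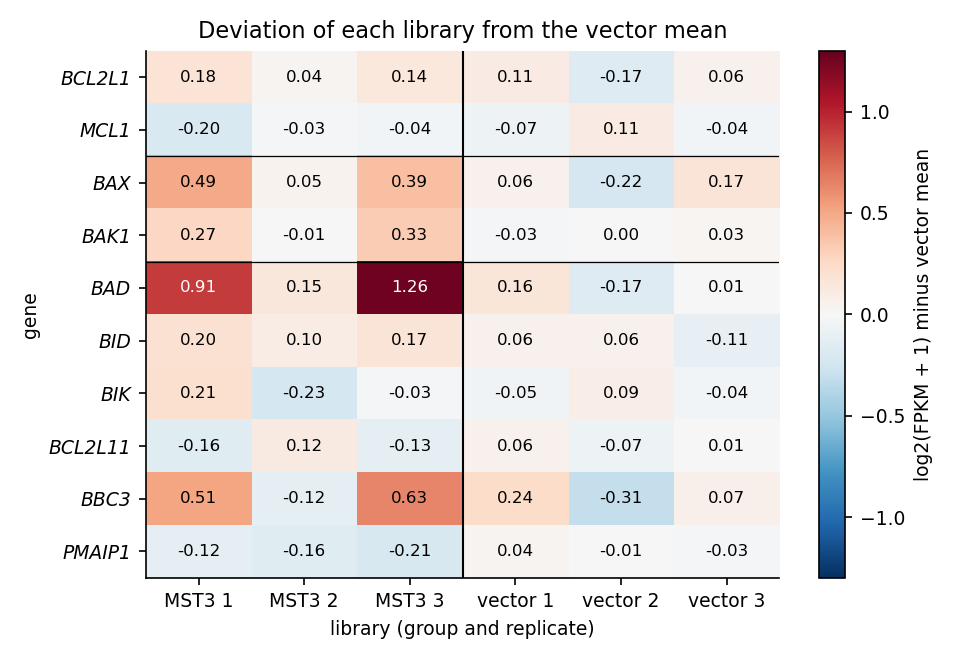
Deviation of each library from the vector mean, as log2(FPKM + 1), for the 10 members in columns of 3 MST3 and 3 vector libraries. MST3 replicates 1 and 3 are high for BAX, BAK1, BAD and BBC3 where MST3 replicate 2 stays at -0.12 to 0.15, and PMAIP1 is low in all 3 MST3 libraries.

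GC-rich and GC-poor genes deviated most in MST3 replicate 3, with MST3 replicate 1 close to the vector libraries for the GC-rich genes. Tested genes with 60% GC or more in their longest transcript had a median deviation of 0.08, -0.05 and 0.36 in the numbered MST3 libraries, against 0.05, -0.08 and 0.03 in the vector libraries. Those below 45% GC had -0.09, 0.03 and -0.17 in MST3 replicates, against -0.03, 0.05 and -0.02 in vector replicates. BBC3 and BAD have the most GC of the members, 69.7 and 66.3%, and PMAIP1 the least at 37.2%, with MCL1 at 45.1% and BCL2L11 at 45.7%. When each library's trends with gene length and GC content were removed, an alternative chosen after seeing the data, the log2 difference was 0.58 for BAD, 0.19 for BAX, 0.16 for BBC3 and 0.07 for BAK1. It was 0.17 for BID and -0.14 for PMAIP1. BCL2L11 changed sign to 0.02 and BIK stood at -0.15. In that fit 2 members had a limma unadjusted p under 0.05, BAD (0.00772) and BID (0.0424), beside 6.97% of tested genes. The adjusted p was 0.663 for both. With the length trend alone removed, the differences were 0.7 for BAD, 0.26 for BAX, 0.3 for BBC3, 0.13 for BAK1 and -0.11 for BIK. Removal of the GC trend alone was not tested.

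**Figure D4:**
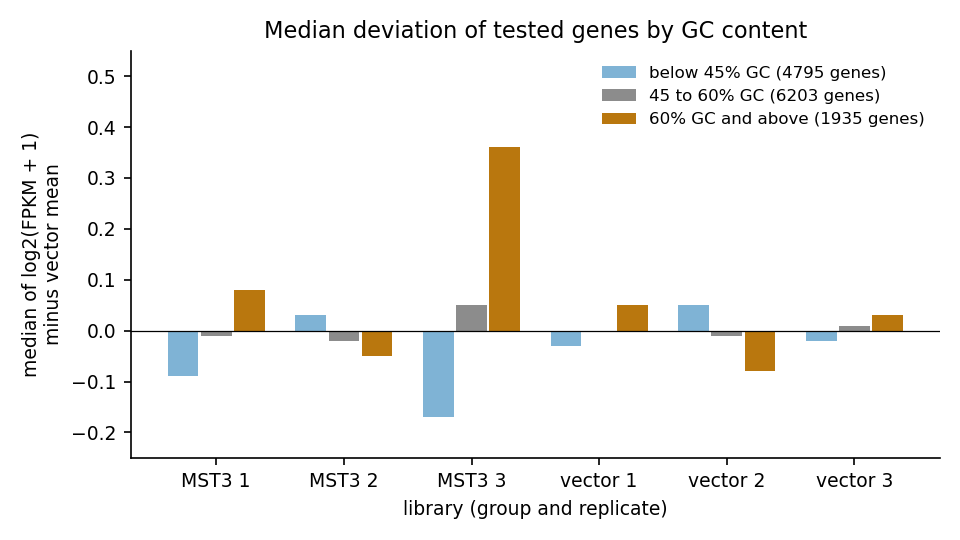
Median deviation of log2(FPKM + 1) from the vector mean in each library, for tested genes below 45% GC, from 45 to 60% GC, and at 60% GC or more. MST3 replicate 3 stands apart, with 0.36 for the GC-rich genes and -0.17 for the GC-poor ones.

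Summed by role, the groups overlapped in every sum and ratio. The anti-apoptotic pair summed to 90, 93.7 and 95.5 FPKM in MST3 libraries 1 to 3, against 93.4, 95.5 and 93.7 FPKM in vector libraries 1 to 3. The effectors summed to 34.8, 26.3 and 33.8 FPKM in MST3 libraries, against 26.3, 23.5 and 28.1 FPKM in vector libraries. As a ratio of effector to anti-apoptotic FPKM, this was 0.341 ± 0.0542 in MST3 and 0.275 ± 0.027 in vector libraries (SD, n = 3 each), and the groups overlapped, with MST3 replicate 2 at 0.281 below vector replicate 3 at 0.299. The ratio of BAX to BCL2L1 was 0.612, 0.491 and 0.584 in MST3 libraries, against 0.47, 0.467 and 0.525 in vector libraries. BH3-only mRNAs summed to 81, 65.4 and 82 FPKM in MST3 libraries, against 72.8, 67.1 and 68.2 FPKM in vector libraries, and MST3 replicate 2 was the lowest of all 6.

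The other BCL2 family genes were listed for comparison, and 10 of 16 reached the level for a test. None passed limma and 0 had an unadjusted p under 0.05 (5 positive and 5 negative differences, median 0.02). In this list and those that follow voom called 0 genes as well, since STK24 was its only call. BCL2 itself, the founding anti-apoptotic gene, averaged 0.313 ± 0.0868 FPKM in MST3 and 0.346 ± 0.0489 FPKM in vector libraries (SD, n = 3 each), too low to test. BCL2L2, which encodes BCL-w, had 9.31 and 8.6 FPKM (log2 difference 0.10, adjusted p = 0.741, and 0.04 without MST3 replicate 1). BCL2A1 was listed at 0 in every library. BCL2L13, a mitophagy receptor of the family, had 9.07, 9.98 and 9.6 FPKM in MST3 libraries, against 11.5, 10.4 and 10.3 FPKM in vector libraries. Every MST3 library was lower, as for 6.7% of tested genes (log2 difference -0.15, limma adjusted p = 0.719). BNIP3L, also a mitophagy receptor, had 67.3 and 73.3 FPKM with overlapping groups.

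Downstream of the pore, 14 genes of the outer membrane, the apoptosome and the caspases were tested. None passed limma, 2 had an unadjusted p under 0.05 (DFFB and HTRA2), beside 5.38% of tested genes, and 7 differences were positive and 7 negative. DFFB, the nuclease that cuts DNA in dying cells, had 2.17, 2.48 and 2.62 FPKM in MST3 libraries, against 2.03, 1.61 and 1.92 FPKM in vector libraries (log2 difference 0.26, adjusted p = 0.719). HTRA2, a mitochondrial protease that is released through the pore, had 6.69, 5.97 and 6.32 FPKM in MST3 libraries, against 5.84, 5.33 and 4.77 FPKM in vector libraries (log2 difference 0.22, adjusted p = 0.719). In both genes, and in DFFA, every MST3 library was above every vector library, beside 5.19% of tested genes. In VDAC3 every MST3 library was below every vector library, beside 6.7% of tested genes. For HTRA2, a gene of 60.5% GC, the log2 difference was 0.17 with the length trend removed and 0.09 with length and GC trends removed. For DFFB it was 0.24 in both fits. VDAC2, the channel that holds BAK1 in the outer membrane, had 78.3 FPKM in MST3 and 89 FPKM in vector libraries, with overlapping groups.

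Of the inhibitor of apoptosis genes, 5 of 7 were tested, none passed limma and 0 had an unadjusted p under 0.05 (2 positive, 3 negative, median -0.03). BIRC5 (survivin) had 46.4 FPKM in MST3 and 42.7 FPKM in vector libraries, BIRC6 had 8.04 and 8.78 FPKM, and XIAP had 6.1 and 5.93 FPKM. Of the death receptor genes 9 of 12 were tested, none passed, 0 had an unadjusted p under 0.05, and 5 differences were positive. TNFRSF10A, which encodes the TRAIL receptor DR4, had 13.2, 13.2 and 12.7 FPKM in MST3 libraries, against 11.7, 12 and 11.7 FPKM in vector libraries. The groups did not overlap, with MST3 higher as for 5.19% of tested genes (log2 difference 0.13, limma adjusted p = 0.719). Its coefficients of variation, 1.94 and 1.46%, were below the counting errors of 3.93% in MST3 and 4.06% in vector libraries. FADD, the adaptor that recruits caspase-8, had 6.71, 4.38 and 8.3 FPKM in MST3 libraries, against 4.57, 4.06 and 5.32 FPKM in vector libraries. Its values followed the same split of MST3 replicates 1 and 3 from replicate 2. FAS had 1.64 FPKM in MST3 and 1.97 FPKM in vector libraries.

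Genes that control the members were not called either. Among 9 tested transcriptional regulators none passed limma and 0 had an unadjusted p under 0.05, with 4 positive and 5 negative differences and a median of -0.08. CDKN1A and MDM2, genes of the DNA damage response, were not called, with CDKN1A at 142 FPKM in MST3 and 127 FPKM in vector libraries and MDM2 at 12.4 and 13.2 FPKM. FOXO1 (3.99 and 4.7 FPKM), FOXO3 (18.9 and 21 FPKM) and HIF1A (23.8 and 26.4 FPKM) had overlapping groups. Among 26 tested post-translational regulators 0 passed limma, with 11 positive and 15 negative differences. MAPK8 had the 1 unadjusted p under 0.05, beside 5.38% of tested genes. Groups did not overlap for 1 gene that was higher and 2 that were lower, beside 5.19 and 6.7% of tested genes. MAPK8, which encodes JNK1, a kinase that can phosphorylate BIM, had 5.98, 6.66 and 5.47 FPKM in MST3 libraries, against 7.01, 7.67 and 6.9 FPKM in vector libraries, with every MST3 library lower (log2 difference -0.22, adjusted p = 0.719). DYNLL2, the dynein light chain that binds BMF, had 35.5, 24.8 and 25.2 FPKM in MST3 libraries, against 23.6, 22.5 and 24.2 FPKM in vector libraries. AKT2 had 6.91 and 5.99 FPKM with overlapping groups. PGAM5 had 25.8, 21.8 and 31.2 FPKM in MST3 libraries, against 22.5, 20.7 and 23.5 FPKM in vector libraries (log2 difference 0.22, adjusted p = 0.719). Leaving out MST3 replicate 3 gave PGAM5 a difference of 0.09, and leaving out MST3 replicate 2 gave 0.34.

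**Figure D5:**
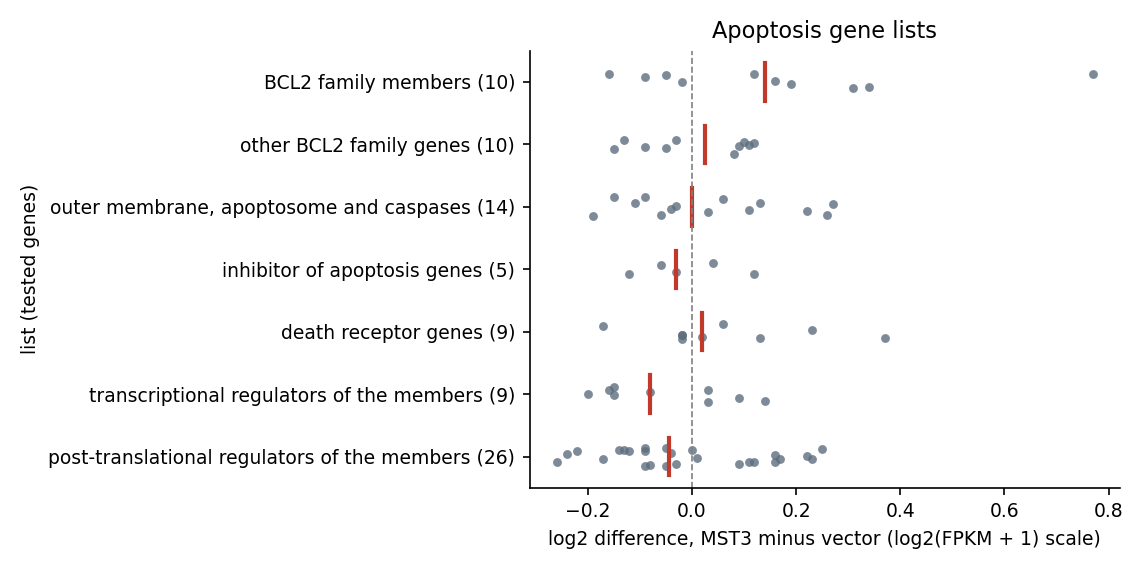
Log2 difference (MST3 minus vector, on the log2(FPKM + 1) scale) of each tested gene in the BCL2 family and in 6 lists of apoptosis genes, with red lines for the medians. BAD at 0.77 is the farthest point from 0, and the medians of the 6 other lists lie between -0.08 and 0.02.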

How the data were processed

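Total RNA of 6 HCT116 libraries was sequenced, 3 with the MST3 plasmid and 3 with vector. The authors deposited 1 table of FPKM values with gene positions and lengths, per the file headers. HISAT2 is named per the submitters' processing notes, and no source used here gives its version, the counting program or the strand setting. All 58735 Ensembl entries have the positions of GENCODE 29 (GRCh38). FPKM times gene length was a whole multiple of 1 read's worth in 100% of values (tolerance 0.01), which gave the reads. Counting errors cover counting only.

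Values were tested as log2(FPKM + 1), a scale that understates changes of low genes, with limma 3.58.1 in R 4.3.3 (eBayes with trend). A gene needed a mean of 1 FPKM or more, which left 13036, with two-sided p-values and Benjamini-Hochberg adjustment at 0.05. The exact permutation test used FPKM without logs, as the difference of the group means. The limma fit was tested on simulated data. GC content came from the longest GENCODE 29 transcript (99.2% of tested genes had one). BH3 stretches were read from the principal transcript of each gene.

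The members and lists were chosen with earlier results of these data known. Named by rule were all members, STK24, any other gene past the threshold, BCL2, BCL2L2, MDM2, CDKN1A, PGAM5 and the 3 genes with the smallest p in each list. MARCHF5, whose symbol is altered in the table, was matched by its gene ID. DIABLO has 2 entries. One gene of the named list is not reported here. Alternatives covered pseudocount, filter, scaling, variance model, weights, replicate block, each library left out, limma voom on the recovered reads, the gene length trend, protein-coding genes alone and, added after seeing the data, length and GC trends. Plots were made with Python 3.11.15 and matplotlib 3.10.9.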

Additional observations from a re-analysis of the deposited data

How the results depend on the processing

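STK24 remained the only gene past the threshold, and 0 BCL2 family members passed, under all 20 alternatives. The count of genes at an unadjusted p under 0.05 was 701 and ran from 298 without vector replicate 2 to 2554 without MST3 replicate 2. BAD, BAX, BBC3, BAK1, BID and BCL2L1 kept positive differences, and PMAIP1 and MCL1 negative ones, under every alternative. BIK turned positive with median-of-ratios factors (0.01), sample weights (0.05) and voom (0.01), and ran from -0.13 to 0.09 with 1 library left out. BCL2L11 and MDM2 turned to 0.02 each with length and GC trends removed. With 1 library left out XIAP ran from -0.03 to 0.11, and the cause was not tested. The labels do not say whether equal numbers mark paired samples. The deviations of same-numbered libraries correlated at 0.0158, 0.226 and 0.035, and only number 2 of the MST3 libraries correlated best with its own number. With 3 libraries per group these correlations cannot decide whether the numbers were paired. With the number as a replicate block, 1 gene and 0 members passed. In that fit 3 members, BAX, BAD and BBC3, had a limma unadjusted p under 0.05 (0.0107, 0.00766 and 0.0172), beside 10.3% of tested genes. Depth limits BAD and BIK most among the members, with counting errors of 5.34 and 6.53% in MST3 and 7.24 and 6.4% in vector libraries.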
